A study of Mus musculus with 16 samples.

Results

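The genes described here encode the proteins of the cytosolic ribosome. Protein-coding genes were taken when their symbol was Rpl or Rps followed by a number and at most a short suffix, or was Rplp0, Rplp1, Rplp2 or Rpsa. This gave 83 of the 56268 genes in the table, 51 named for the large subunit and 32 for the small subunit, spread over 19 chromosomes. Fau, which encodes a ribosomal protein fused to a ubiquitin-like chain, falls outside that naming rule and was not included.

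A cytosolic ribosome is built from a small subunit, which reads the mRNA, and a large subunit, which joins amino acids. The mRNAs of these genes are abundant and short in most tissues. They start with a run of pyrimidines, the terminal oligopyrimidine motif, through which the kinase complex mTORC1 controls their translation. The gene deleted in this study, Rictor, encodes the subunit that defines the other mTOR complex, mTORC2. Mammalian genomes hold many processed pseudogenes of ribosomal protein genes, which are reverse-transcribed copies of their mRNAs, so that reads from the mRNA can be placed on the copy and the reverse.

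RNA was sequenced from colonic epithelial cells of mice in 4 groups of 4 libraries. Control libraries carry the genotype label Villin-Cre (WT in the sample titles) and cKO libraries a floxed Rictor allele with Villin-Cre. Villin-Cre acts in intestinal epithelium, so other cell types in a sample should keep the floxed allele whole. Each genotype was taken on normal water (control and cKO) or after 3% dextran sulfate sodium (control_DSS and cKO_DSS), an agent in the drinking water that injures the colonic epithelium and causes colitis. The labels give neither age nor sex and do not say whether the 4 libraries of a group came from separate mice, so p-values measure the spread between these libraries, which may be technical.

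Each library held 13911823 to 16414914 reads on genes. Rictor itself did not pass the test between the genotypes on water, at 2.80 ± 0.44 FPKM (SD, n = 4) in control and 2.47 ± 0.24 FPKM in cKO (limma, adjusted p = 0.58), and the table does not separate the deleted exons. After DSS it was 3.63 ± 0.57 FPKM in control_DSS and 2.51 ± 0.46 FPKM in cKO_DSS (limma, adjusted p = 0.076). All 8 epithelial markers were read in every library, with a summed level of 5644 to 7575 FPKM. The 5 T cell markers summed to 2.45 to 6.78 FPKM and the 6 B and plasma cell markers to 0.502 to 2.95 FPKM, without a gap between water and DSS. The 6 fibroblast markers summed to 2.14 to 4.04 FPKM on water and to 5.51 to 9.91 FPKM after DSS, and the 8 myeloid markers to 1.93 to 4.27 FPKM and 5.28 to 9.80 FPKM. Of the myeloid markers, 1 was at 0 throughout control and 2 throughout cKO and cKO_DSS. The part of these cells in the DSS results was not tested. In bulk RNA, fewer cells of a type and less RNA per cell cannot be told apart. Y-linked reads were 0 in control 3, cKO 3 and cKO 4, 635 to 1856 in the other water libraries and 2681 to 4533 in the DSS libraries, so the water and DSS groups also differ in that respect. Reads of Xist, the RNA of the inactive X chromosome, were 10022 to 25600 in all 8 water libraries, 5275 in control_DSS 2 and 0 to 7 in the other 7 DSS libraries. Apart from control_DSS 2, DSS and this difference in Xist reads cannot be told apart in the DSS comparisons. Among the ribosomal protein genes, cKO_DSS 2, 3 and 4 stood apart from cKO_DSS 1, as set out below.

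Levels are given as FPKM, which divides reads by gene length and library size. A filter of at least 1 FPKM in at least 4 libraries kept 80 of the 83 genes, 48 of the large and all 32 of the small subunit, and 13255 genes in all. Of the 80, 78 reached 1 FPKM in all 16 libraries. The 3 genes that did not pass are copies expressed in restricted tissues. Rpl3l, the striated muscle form of Rpl3, was at 0 to 0.232 FPKM. Rpl39l, a testis-enriched form of Rpl39, had reads in 1 library, and Rpl10l, the testis form of Rpl10, had none in any of the 16. The genes they are copies of were at 199 FPKM (Rpl3), 161 FPKM (Rpl39) and 226 FPKM (Rpl10) on average.

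Of the stalk proteins, Rplp1 and Rplp0 had the highest levels. Rplp1 averaged 2042 FPKM over the 16 libraries, and Rplp0, the stalk base, 850 FPKM, while Rplp2, the partner of Rplp1, was at 107.5 FPKM. They were followed by Rpl4 at 470 FPKM, Rps15 at 454 FPKM and Rps3a1 at 414 FPKM. Over single libraries Rplp1 ranged from 1140 to 2830 FPKM and Rplp0 from 638 to 1103 FPKM, so these did not overlap, while Rpl4 (382 to 583 FPKM), Rps15 (207 to 958 FPKM) and Rps3a1 (78.2 to 703 FPKM) overlapped one another. At the low end of the 80 were Rps10 at 1.52 FPKM, Rpl24 at 4.72, Rpl13a at 5.49, Rpl21 at 9.83 and Rpl35a at 15.8 FPKM. In all, 53 genes averaged over 100 FPKM and 7 of the 80 under 20 FPKM. Each neighbouring pair in that low order overlapped in its library values.

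The paralogs that are expressed in many tissues were also measured. Rps27l, a p53-responsive copy of Rps27, was at 105 FPKM beside 163 FPKM for Rps27. Rpl22l1 was at 20.5 FPKM beside 58.9 FPKM for Rpl22, and Rpl7l1, a nucleolar factor related to Rpl7, at 17.7 FPKM beside 277 FPKM for Rpl7. Rps4x, the X-linked form of that protein, was at 382 FPKM. Rpl7l1 was the steadiest of these, between 15.6 and 20.1 FPKM in all 16 libraries.

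The length used for FPKM bears on the order. The deposited gene_length is over all annotated exons of a gene and ranged from 383 bases (Rpl36) to 6270 bases (Rps15a), with a median of 1806 bases. The principal transcripts of the same 80 genes in GENCODE M21 had a median of 768 bases, and gene_length was over 2 times the principal transcript for 47 of them. Across the 80 genes mean FPKM was lower where gene_length was larger (Spearman rho = -0.36), while with the length of the principal transcript rho was 0.10. Reads themselves went the other way with gene_length (rho = 0.24). These are correlations across genes that share libraries, given as a description.

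Reads on pseudogenes were set beside those on the genes. A pseudogene was assigned to the ribosomal protein gene whose principal transcript it matched best, with at least 80% identity over at least 200 bases. This assigned 1788 of 13566 pseudogenes and retrocopies, of which 818 had reads and 94 had at least 100 reads in some library. They took 9.50 to 11.3% of the reads of genes and pseudogenes together in the 16 libraries. In the DSS groups that share was 9.50 to 10.5% (control_DSS) and 9.92 to 10.8% (cKO_DSS), overlapping the 9.88 to 11.3% of the water groups. The median for a single gene was 7.78%, 20 of the 80 genes were under 1%, and 11 were over 30%. Across the 80 genes, the median share of 100-base windows of the principal transcript that also occur in another gene was 42.1%.

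Some of the genes with the lowest FPKM had a large share of reads on pseudogenes. Rps10, a protein of the small subunit beak, had 839 reads in all 16 libraries, and its pseudogenes had 15743, or 94.9% of the sum. The share was 70.1% for Rpl17, 69.0% for Rpl21, 66.1% for Rpl24, 61.3% for Rpl7a, 50.3% for Rpl23a, 42.2% for Rpl29, 39.97% for Rps28, 37.3% for Rps3a1, 36.1% for Rps7 and 35.1% for Rpl30. Other low genes had less, with 24.5% for Rpl35a, 15.5% for Rpl13a and 0.169% for Rpl7l1. Across the 80 genes, mean FPKM had rho = -0.37 with the share on pseudogenes and rho = -0.12 with the share of 100-base windows found elsewhere. The 5 pseudogenes with the most reads were Rpl17-ps3 (49469 reads in all libraries), Rpl17-ps10 (47889), Rps7-ps3 (46096), Rps3a3 (31248) and Gm10275, a copy of Rpl12 (28951).

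How alike a gene and its copy are can be seen from stretches of 80 bases, shown for genes whose level or fold change moves when the copies are added. Each is the stretch with the most differences, among those aligned without a gap, within the longest reading frame of the gene's principal transcript. For Rps10 that frame extends beyond the annotated protein. Capitals mark the bases that differ. On mm10, Rps3a1 lies at chr3:86137940-86142702, Rpl29 at chr9:106429454-106431568, Rpl23a at chr11:78180932-78183584, Rpl7a at chr2:26910764-26913318 and Rps10 at chr17:27630418-27636669. The transcripts are those of GENCODE M21 (GRCm38), 5′ to 3′ on the strand of the gene.
Rps3a1: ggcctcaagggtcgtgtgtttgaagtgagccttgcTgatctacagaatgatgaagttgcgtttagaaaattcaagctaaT
Rps3a3: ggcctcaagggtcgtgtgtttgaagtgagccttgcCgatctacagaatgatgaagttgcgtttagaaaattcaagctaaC
Rpl29: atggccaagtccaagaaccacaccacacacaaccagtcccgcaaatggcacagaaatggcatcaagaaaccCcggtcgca
Gm13841: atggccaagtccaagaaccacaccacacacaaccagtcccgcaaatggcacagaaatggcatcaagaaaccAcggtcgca
Rpl23a: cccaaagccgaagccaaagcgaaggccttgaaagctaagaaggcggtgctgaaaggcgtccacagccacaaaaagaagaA
Rpl23a-ps3: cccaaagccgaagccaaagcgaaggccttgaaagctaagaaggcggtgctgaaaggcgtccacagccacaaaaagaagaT
Rpl7a: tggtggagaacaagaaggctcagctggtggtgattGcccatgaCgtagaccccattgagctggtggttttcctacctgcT
Rpl7a-ps5: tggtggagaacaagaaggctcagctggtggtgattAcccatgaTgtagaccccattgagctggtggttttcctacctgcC
Rps10: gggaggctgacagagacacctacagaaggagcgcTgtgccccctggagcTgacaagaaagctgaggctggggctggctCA
Rps10-ps2: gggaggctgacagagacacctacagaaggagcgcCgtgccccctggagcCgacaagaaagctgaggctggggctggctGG

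Over the aligned length, Rps3a1 and Rps3a3 were 98.9% identical, Rpl29 and Gm13841 99.4%, Rpl23a and Rpl23a-ps3 99.8%, Rpl7a and Rpl7a-ps5 98.1%, and Rps10 and Rps10-ps2 99.0%. The most divergent stretch of 80 bases without a gap held 1 difference for Rpl29 and for Rpl23a, 2 for Rps3a1, 3 for Rpl7a and 4 for Rps10. A read within such a stretch is told apart from the copy by these bases alone. How the authors treated reads that match several places is not given in the sources used here.

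Rps3a1, a small subunit protein on the solvent side, showed opposite levels on the gene and on its copies. Its own reads were 8468, 8343, 1756 and 1141 in control 1 to 4, and 10492, 8593, 1241 and 5767 in cKO 1 to 4. In the DSS groups they were 6218, 7173, 5731 and 8254 in control_DSS, and 5997, 7901, 4284 and 5852 in cKO_DSS. Control 3, control 4 and cKO 3 were therefore far below the other libraries of their own groups. Reads on its pseudogenes were 476, 2686, 6826 and 8882 in control 1 to 4 and 250, 2265, 9202 and 4625 in cKO 1 to 4, highest where the gene was lowest. The gene alone varied 9.4-fold over the 16 libraries, from 76.9 to 726 CPM (reads scaled to the library total), and the gene with its copies 1.4-fold, from 527 to 747 CPM. For DSS in control the log2 fold change was 1.08 ± 0.63 (SE) for the gene alone and 0.05 with the copies, and neither passed the test (limma, adjusted p = 0.21 and 0.74).

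**Figure D1:**
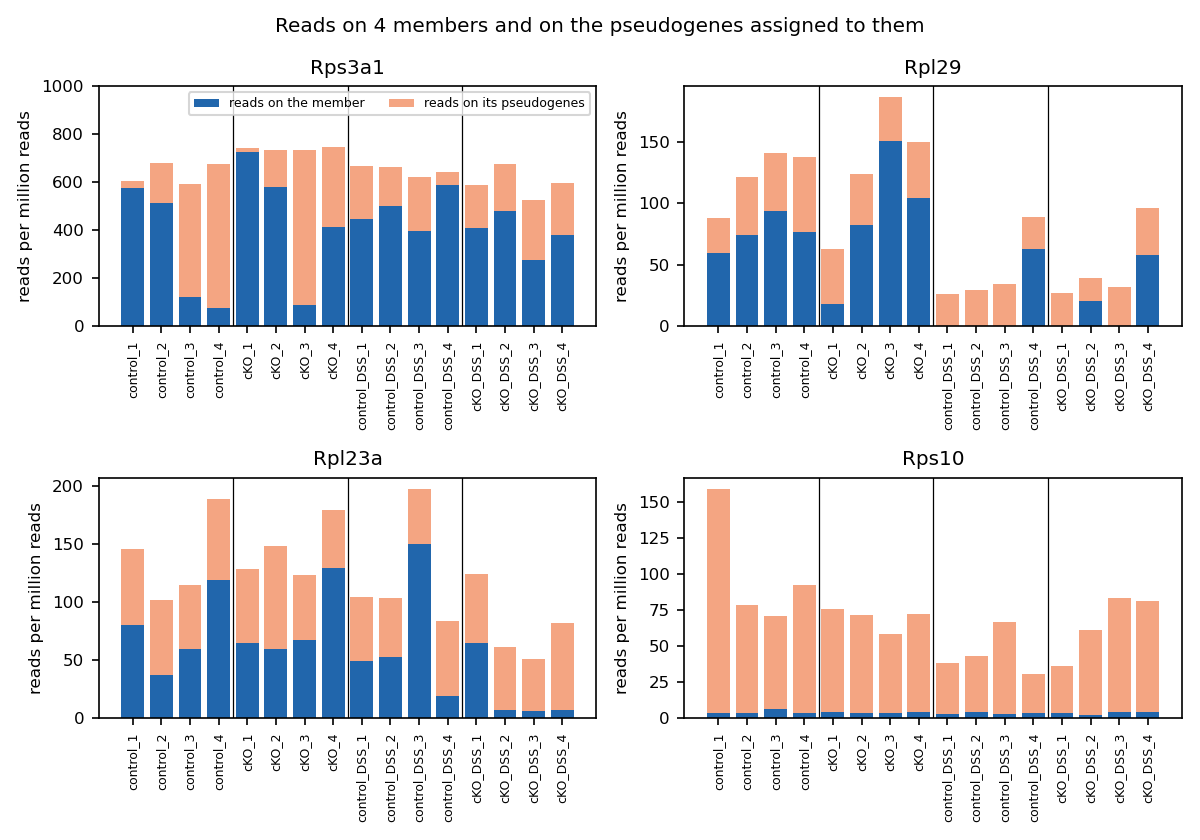
Reads scaled to the library total (y axis, CPM) in each of the 16 libraries (x axis) on Rps3a1, Rpl29, Rpl23a and Rps10 (blue bars) and, stacked on them, on the pseudogenes assigned to each (orange bars). Rps3a1 with its copies stays between 527 and 747 CPM while the gene alone ranges from 76.9 to 726, Rpl29 is almost absent from 5 of the 8 DSS libraries, and nearly all Rps10 reads lie on its copies.

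Of the 11 genes with over 30% on pseudogenes, 10 varied less between libraries once the copies were added. Rps10 with its copies was the exception, at 30.1 to 159 CPM against 6.004 CPM at most for the gene alone. Rps18 (24.4% on pseudogenes) ran from 14.8 to 216 FPKM within the control group alone. Its reads were 542, 3038, 4105 and 7917 in control 1 to 4 and those of its copies 1386, 906, 740 and 418, again in the opposite order.

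The share of all reads that fell on the 83 genes differed between the groups. It was 2.76, 2.61, 2.80 and 3.63% in control 1 to 4, and 2.72, 2.72, 2.87 and 3.03% in cKO. After DSS it was 2.26, 2.38, 2.56 and 2.75% in control_DSS and 2.24, 1.80, 2.05 and 2.24% in cKO_DSS. The 4 cKO_DSS libraries thus lay below all 12 others, while control_DSS overlapped control. Mitochondrial reads also varied, from 4.74 to 15.1% of a library. Counted against the reads of nuclear genes only, the share was 1.94 to 2.40% in cKO_DSS, 2.44 to 2.91% in control_DSS, 2.83 to 4.09% in control and 2.94 to 3.44% in cKO.

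**Figure D2:**
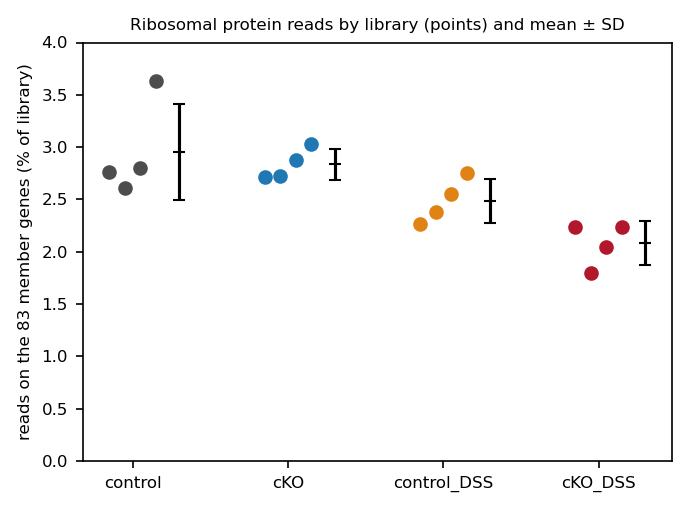
Percentage of each library's reads on the 83 ribosomal protein genes (y axis), by group (x axis), with points for libraries and the mean ± SD of 4 libraries beside them. The cKO_DSS points, 1.80 to 2.24%, lie below those of the other groups.

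On water, cKO and control were compared to ask what loss of Rictor does without injury. No ribosomal protein gene was called by limma (adjusted p under 0.05), and 12 of 13255 genes were called in all, or 0.0905% (0.0528% higher and 0.0377% lower in cKO). At an unadjusted p under 0.05 there were 7 of the 80 (8.75%), 5 lower and 2 higher in cKO, beside 18.1% of all genes. The median log2 fold change of the 80 was -0.03, with 42 below 0 and 38 above.

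The 3 with the smallest p are given as values. Rpl15, a large subunit core protein, was at 104, 95.6, 108 and 132 FPKM in control and 75.0, 66.3, 54.3 and 63.1 FPKM in cKO. These groups did not overlap, with a log2 fold change of -0.75 ± 0.24 (SE; limma, adjusted p = 0.16). Rps23, which sits at the decoding centre, was at 246 ± 42.3 FPKM in control and 170 ± 11.7 FPKM in cKO, also without overlap (-0.52 ± 0.19, adjusted p = 0.20). Rpl24, of the bridge between the subunits, was at 3.55 ± 1.02 FPKM in control and 6.38 ± 1.24 FPKM in cKO (0.71 ± 0.25, adjusted p = 0.19), on 37 to 106 reads a library and with 66.1% of its summed reads on copies. With the copies added, its log2 fold change was 0.23.

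A group of ribosomal protein genes was lower after DSS in control libraries. Of the 80, 26 fell and 0 rose, beside 13.5% of all genes tested that fell and 15% that rose. They were 18 of 48 large and 8 of 32 small subunit genes. That is 32.5% of the 80, beside 28.5% of all genes called in either direction. The median log2 fold change of the 80 was -0.26, and that of all genes -0.01. The 8 largest falls were in Rpl29, Rpl7a, Rpl28, Rpl36a, Rpl21, Rpl23, Rpl35 and Rps26. The control_DSS libraries also had more fibroblast marker reads (8.32 to 9.91 against 2.14 to 3.65 FPKM) and more Y-linked reads, and all but control_DSS 2 had almost no Xist reads. With the Y-linked level as a covariate 4 of the 80 were called. Single libraries mattered too: 16 were called without control 3, 12 without control 4, and 12, 13 and 15 without control_DSS 1, 2 and 4. The share of all genes called is not set beside these counts, so they do not single out the 80 genes.

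Rpl29, a large subunit protein also known on the cell surface for binding heparin, gave the largest fall. It was at 52.0, 62.5, 80.3 and 67.4 FPKM in control 1 to 4. In control_DSS it was at 0.256, 0.556, 0.307 and 53.9 FPKM, so 3 libraries were almost without it and control_DSS 4 was near the control level. The 3 low values rest on 4, 9 and 5 reads. The log2 fold change was -4.26 ± 1.28 (SE; limma, adjusted p = 0.024), and -5.59 without control_DSS 4. The call was lost without control 3, control 4, control_DSS 1, 2 or 3 (adjusted p = 0.055, 0.053, 0.073, 0.065 and 0.052). The same split was seen in the cKO libraries. There Rpl29 was at 15.4, 71.1, 140 and 92.3 FPKM on water and at 0.240, 18.9, 0.338 and 49.8 FPKM in cKO_DSS 1 to 4 (-3.29 ± 1.28, adjusted p = 0.099). Its copy Gm13841, on chr5, kept 261 to 773 reads in every library. With the copies added, the fold changes were -1.56 in control and -1.48 in cKO, both past the threshold (limma, adjusted p = 0.016 and 0.031).

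Rpl7a, which also hosts small nucleolar RNAs in its introns, was at 49.6, 25.5, 78.1 and 39.8 FPKM in control. In control_DSS it was at 2.99, 3.99, 13.4 and 13.3 FPKM, all below the lowest control. The log2 fold change was -2.51 ± 0.57 (SE; limma, adjusted p = 0.0067), and -1.07 with its 162 assigned copies added (adjusted p = 0.015). On water, cKO 3 and cKO 4 were at 11.8 FPKM each, against 36.2 and 45.7 FPKM in cKO 1 and 2. Rpl7a and Rps26 were called for DSS in control under all 34 alternatives tried.

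Rpl28, a large subunit surface protein, was at 113, 172, 203 and 309 FPKM in control and at 46.7, 60.0, 125 and 26.1 FPKM in control_DSS. Only control_DSS 3 reached into the control range, and the log2 fold change was -1.75 ± 0.45 (SE; limma, adjusted p = 0.012). Rps26, which lies at the mRNA exit channel, had 241 to 377 FPKM in control and 103 to 238 FPKM in control_DSS, without overlap (-1.09 ± 0.22, adjusted p = 0.0042). Rpl23, a large subunit protein that can bind Mdm2, went from 143 ± 30.8 to 65.9 ± 17.5 FPKM (-1.12 ± 0.27, adjusted p = 0.0083). The other 3 of the 8 were Rpl36a (-1.20 ± 0.36), Rpl21 (-1.13 ± 0.41) and Rpl35 (-1.10 ± 0.35), at adjusted p of 0.023, 0.049 and 0.030. In each of these 3 the groups overlapped, and each call was lost when some single libraries were left out (control 4 for all 3, at adjusted p = 0.066, 0.16 and 0.096). The smallest called fall was in Rpl4, from 518 ± 48.3 to 424 ± 27.4 FPKM (-0.28 ± 0.09, adjusted p = 0.030). The stalk gene Rplp0, not called, went from 942 to 832 FPKM.

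**Figure D3:**
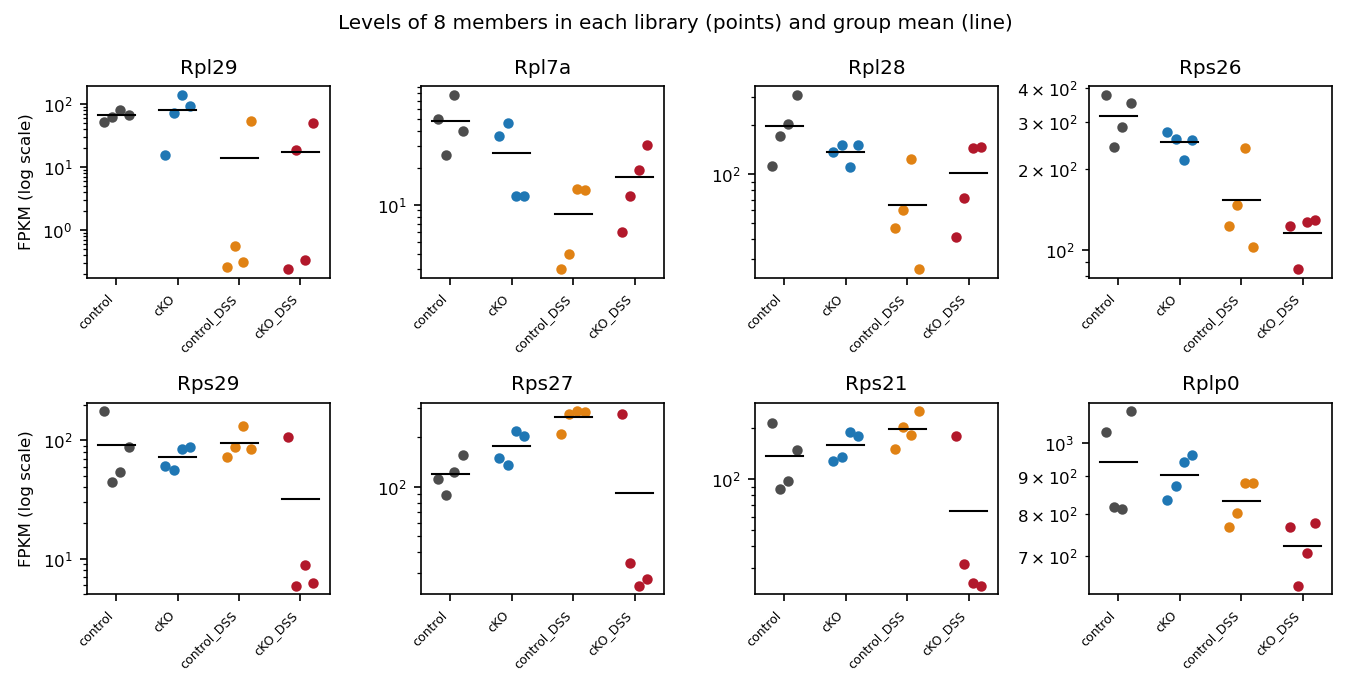
FPKM on a log axis (y) for 8 ribosomal protein genes by group (x), with 1 point per library and a line at the group mean. Rpl29 is under 1 FPKM in 3 control_DSS and 2 cKO_DSS libraries, Rps29, Rps27 and Rps21 are low in 3 of 4 cKO_DSS libraries, and Rplp0 stays between 638 and 1103 FPKM throughout.

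Several of these falling genes carry a pyrimidine run over their annotated start. RefSeq promoters on GRCm38.p6 were at hand for 63 of the 83 genes, 75 promoters in all. A run of 6 or more C or T over the start base, counted to both sides of it, was present in 25.3% of them. The share was 7.25% of all 32851 promoters in the table. The start base was C in 29.3% against 16.3%. The letters CCGGAAG, a binding motif of ETS factors, occurred on either strand within the 300 bases of 36% of these promoters against 8.86% of all, AAGATGGC, the core of the YY1 motif, in 10.7% against 2.75%, and TATAAA in 9.33% against 13.6%. The windows below run from 40 bases before to 20 bases from the start onward, with the pyrimidine run over the start in capitals. They are shown for 3 genes named above for their falls with DSS, for Rpl15, and for 2 short genes named below, all of them genes with a run.
Rpl7a, chr2:26910767-26910826, + strand: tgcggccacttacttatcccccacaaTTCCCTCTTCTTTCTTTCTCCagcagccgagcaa
Rpl28, chr7:4792925-4792984, + strand: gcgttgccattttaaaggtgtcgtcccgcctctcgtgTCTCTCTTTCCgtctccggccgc
Rpl35, chr2:39005112-39005171, - strand: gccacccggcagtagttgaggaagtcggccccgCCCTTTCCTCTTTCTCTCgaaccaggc
Rpl15, chr14:18270967-18271026, - strand: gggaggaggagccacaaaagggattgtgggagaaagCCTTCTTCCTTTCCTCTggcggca
Rps27, chr3:90213629-90213688, - strand: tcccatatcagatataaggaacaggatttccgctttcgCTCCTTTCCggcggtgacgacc
Rpl38, chr11:114668540-114668599, + strand: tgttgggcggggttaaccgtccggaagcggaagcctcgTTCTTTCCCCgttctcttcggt

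The run was 21 bases in Rpl7a, 18 in Rpl35, 17 in Rpl15, 11 in Rpl28, 10 in Rpl38 and 9 in Rps27. In each of these genes part of the run lies before the annotated start, so the mRNA itself would begin with fewer pyrimidines. A match describes these letters only, since annotated starts may differ from those used in the colon. Genes that fell also include ones with no run over the listed start, such as Rps26, Rpl23 and Rpl36a in control and Rpl41 and Rpl22 in cKO. Whether genes with a run fell more often was not tested.

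With DSS in cKO libraries the test called 29 of the 80 genes (36.25%) lower and 0 higher, beside 6.64% of all genes tested that fell, 8.07% that rose and 14.7% called in either direction. The median log2 fold change was -0.49 (all genes, -0.01), with 73 genes below 0 and 7 above. The 29 were 19 large and 10 small subunit genes. The 2 DSS comparisons use no library in common, but their tests rest on the same fit to all 16 libraries. Of the 26 genes on the control list, 7 (26.9%) were also on the cKO list, which holds 36.25% of the 80. These 7 are 24.1% of the 29 genes on the cKO list, while the control list holds 32.5% of the 80. Both overlap shares are below the rates over the 80 genes, and the overlap therefore does not single out a common set. The 7 were Rpl27a, Rpl36a, Rpl4, Rpl5, Rpl6, Rps26 and Rpsa. Rpl5 belongs to the 5S particle that can bind Mdm2, and Rpsa is also known as the laminin receptor.

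The 8 largest called falls with DSS in cKO were in Rpl23a, Rps29, Rpl38, Rps28, Rps21, Rps27, Rpl39 and Rpl41. Rpl23a lies at the tunnel exit where the signal recognition particle docks. It was at 71.6, 67.7, 82.7 and 153 FPKM in cKO 1 to 4 and at 75.8, 8.76, 6.51 and 7.67 FPKM in cKO_DSS 1 to 4. The last 3 libraries were far below the water group and cKO_DSS 1 was within it, and the log2 fold change was -2.59 ± 0.69 (SE; limma, adjusted p = 0.022). Its pseudogenes had 703 to 1150 reads in the same 4 libraries, and with them added the change was -0.91 (adjusted p = 0.048).

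Rpl38, known for patterning defects in mutant mice, was at 100, 95.8, 110 and 124 FPKM in cKO and 63.1, 20.4, 23.2 and 18.7 FPKM in cKO_DSS. Here all 4 DSS libraries were below the water group (-1.92 ± 0.35, limma, adjusted p = 0.0023). Rpl41, the shortest ribosomal protein, went from 304 ± 58.8 to 97.0 ± 19.2 FPKM, also without overlap (-1.64 ± 0.33, adjusted p = 0.0047). Rps28 was at 16.9 to 24.2 FPKM in cKO and at 17.8, 2.53, 2.84 and 2.83 FPKM in cKO_DSS (-1.87 ± 0.50, adjusted p = 0.021). Among the paralogs, Rpl22 fell from 71.1 ± 7.92 to 38.4 ± 11.3 FPKM and Rpl22l1 from 26.2 ± 4.03 to 13.2 ± 3.47 FPKM (-0.91 ± 0.18 and -0.95 ± 0.27, adjusted p = 0.0038 and 0.028). Rpl3 (-0.48 ± 0.10) and Rps4x (-0.45 ± 0.10) fell at adjusted p of 0.0067 and 0.0070, and Rpl7, Rpl10, Rpl7l1 and Rps27l did not pass the test.

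Without cKO_DSS 2, 3 and 4, a fit in which the lone cKO_DSS library is assumed to vary like the other groups called 2 of the 80. The count was 18 without cKO 3, 16 without cKO 4 and 19 without cKO_DSS 3. These counts are given without the share of all genes called, so they do not single out the 80 genes. With the Y-linked level as a covariate 0 of the 80 were called and 2.26% of all genes. The cKO_DSS libraries held 0 to 4 Xist reads against 12235 to 25600 in cKO.

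After DSS, cKO_DSS and control_DSS were compared to ask what loss of Rictor does in the injured epithelium. Of the 80 genes, 10 were lower in cKO_DSS and 0 higher, beside 1.67% of all genes tested that were lower and 2.03% higher (3.7% in all). That is 12.5% of the 80. Among them were Rps29, Rps27, Rps21, Rpl39, Rpl37a, Rpl38, Rpl36, Rpl22 and Rps13. The median log2 fold change of the 80 was -0.25, with 63 below 0. The longest principal transcript of the 10 has 612 bases. All 10 thus lie under 650 bases, a bound placed above that value, as do 30 of the 80 genes.

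Rps29, a small zinc-binding protein of the small subunit head, was at 72.6, 88.4, 134 and 84.2 FPKM in control_DSS 1 to 4. In cKO_DSS 1 to 4 it was at 107, 5.91, 8.88 and 6.19 FPKM. The libraries cKO_DSS 2, 3 and 4 were more than 8-fold below every control_DSS library, and cKO_DSS 1 was inside their range. The log2 fold change was -2.62 ± 0.68 (SE; limma, adjusted p = 0.046).

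Rps27, the zinc-finger protein also called metallopanstimulin, had 209, 278, 288 and 285 FPKM in control_DSS and 278, 34.3, 25.1 and 27.4 FPKM in cKO_DSS (-2.34 ± 0.54, limma, adjusted p = 0.030). In control on water it was at 111, 88.8, 123 and 155 FPKM, below all 4 control_DSS libraries, and that difference did not pass the test (1.16 ± 0.54, adjusted p = 0.12). Rps21, at the solvent side of the small subunit, had 149, 201, 182 and 249 FPKM in control_DSS and 179, 31.7, 24.3 and 23.5 FPKM in cKO_DSS (-2.14 ± 0.49, adjusted p = 0.030). No 100-base window of the Rps21 principal transcript occurs in another gene, and 0.239% of its summed reads lay on pseudogenes. Rpl39, which lines the exit tunnel, had 199, 266, 209 and 318 FPKM in control_DSS and 249, 42.2, 29.5 and 31.3 FPKM in cKO_DSS (-2.10 ± 0.49, adjusted p = 0.032). No pseudogene was assigned to Rpl39 or Rps29 by the identity rule, though 24.7% of the 100-base windows of Rps29 and 1.75% of those of Rpl39 occur in a pseudogene. Of the windows of Rps27, 98.4% occur in another gene, so its reads are uncertain.

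Another 4 were also highest in cKO_DSS 1 within their group. Rpl37a (-1.47 ± 0.39), Rpl38 (-1.41 ± 0.35), Rpl36 (-1.14 ± 0.27) and Rpl22 (-0.67 ± 0.18) had adjusted p of 0.048, 0.038, 0.033 and 0.049 in limma. Rps13 differed in this, with 62.7, 71.6, 68.9 and 71.3 FPKM in cKO_DSS, all below the 93.2 to 120 FPKM of control_DSS (-0.59 ± 0.15, adjusted p = 0.047). Rps27l, the paralog of Rps27, was at 114, 81.4, 56.4 and 64.6 FPKM in cKO_DSS against 112 to 131 FPKM in control_DSS (-0.66 ± 0.18, adjusted p = 0.055).

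Without cKO_DSS 2, 3 and 4 none of the 80 was called (1 gene in all), and Rps29, Rps27, Rpl39 and Rpl37a then had fold changes of 0.22, 0.08, 0.03 and 0.07. Without cKO_DSS 1, 22 were called, 21 lower and 1 higher. Leaving out any of control_DSS 1, control_DSS 2, cKO_DSS 3 or cKO_DSS 4 gave 0, and leaving out cKO_DSS 2 gave 1. The count was 3 without control_DSS 4, 4 without control_DSS 3 and 5 without cKO 4. It was 6 when any of control 2, control 3, cKO 1 or cKO 2 was left out. Such counts are given without the share of all genes called, so they do not single out the 80 genes.

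Short transcripts were lower on average in these 3 libraries, with exceptions on both sides. Of the 80 genes 14 have a principal transcript under 500 bases and 66 one of 500 or more. The median deviation of the 14 from their own means was -1.33, -0.96 and -0.88 on the log2(FPKM + 1) scale in cKO_DSS 2, 3 and 4, and 0.02 in cKO_DSS 1. For the 66 longer ones it was -0.39, -0.28, -0.15 and -0.23 in cKO_DSS 2, 3, 4 and 1. Among the 14, Rps12 was at -0.01, 0.55 and 0.05 and Rplp1 at 0.41, -0.13 and 0.00 in cKO_DSS 2, 3 and 4. Among the 66, Rpl23a (-2.37, -2.75 and -2.54), Rpl39 (-1.62, -2.12 and -2.04) and Rpl37 (-1.43, -1.46 and -1.34) were low in all 3. Across the 80 genes the deviation correlated with transcript length at rho = 0.23, 0.53 and 0.44 in cKO_DSS 2, 3 and 4, and at -0.39 to 0.16 in the other 13 libraries. Of the 14, 7 were called lower after DSS by genotype (50%), against 3 of 46 with at least 500 and under 1000 bases (6.52%) and 0 of 20 with 1000 or more. For DSS in cKO the counts were 9 of 14, 11 of 46 and 9 of 20, and for DSS in control 2 of 14, 15 of 46 and 9 of 20. The bounds at 500, 650 and 1000 bases were chosen after the values were seen.

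Most of the short transcripts examined outside the set were also below their own means in these libraries. These belong to 12 other protein-coding genes whose longest transcript was under 500 bases, with at least 20 FPKM on average. The ribosomal protein genes were sorted by principal transcript, so the lengths are not on a like measure. Other genes with a short principal transcript but a longer other transcript are not among the 12. The 12 had a median deviation of -0.53, -0.66 and -0.64 in cKO_DSS 2, 3 and 4 and 0.12 in cKO_DSS 1. They were below 0 for 11, 8 and 10 of the 12 in cKO_DSS 2, 3 and 4, and for 4 of 12 in cKO_DSS 1. These counts include mt-Nd3 (-1.48, -1.08 and -2.14) and mt-Nd4l (-0.44, -1.08 and -0.87), which are encoded in the mitochondrial genome. Mitochondrial reads were 6.95, 4.74 and 5.40% of cKO_DSS 2, 3 and 4 and 6.74% of cKO_DSS 1. Lowest of the 12 was Rps27rt, a retrocopy of Rps27 whose reads may not be independent of that gene (-2.26, -2.64 and -2.49), and Ndufa1, a complex I subunit, was at -1.17, -0.90 and -0.94. Ifi27l2a, an interferon-induced gene, lay above its mean (0.56, 1.24 and 1.10), as did Cox5b-ps in cKO_DSS 3 and 4 (0.60 in both, and -0.63 in cKO_DSS 2). Over all 13255 genes, deviation and gene_length had rho = 0.25, 0.03 and 0.02 in these 3 libraries. With GC content over all genes it was -0.38, 0.40 and 0.39, against -0.48 to 0.02 in control_DSS and 0.19 to 0.50 in control. Refits corrected for GC content or for gene_length lost 2 and 1 of the 23 named calls of all comparisons. The length refit used gene_length, which is over all annotated exons, so it does not bear on transcript length. The part of transcript length in the genotype difference was not tested, nor was that of GC content beyond its refit.

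**Figure D4:**
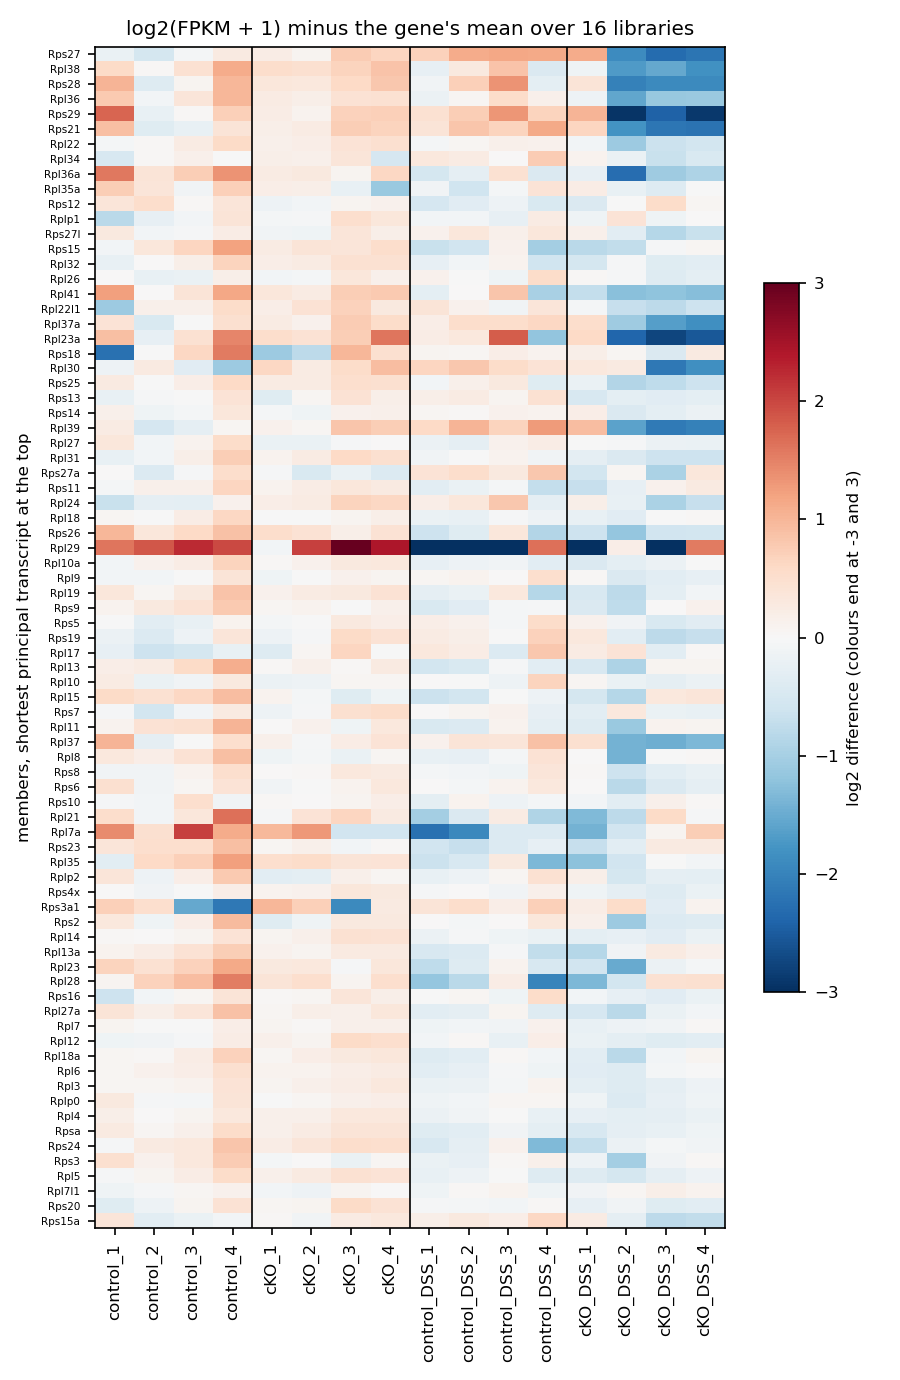
Difference of log2(FPKM + 1) from each gene's mean over 16 libraries (colour) for ribosomal protein genes (rows, shortest principal transcript at the top) in the 16 libraries (columns, groups divided by lines). Many of the upper rows are low in cKO_DSS 2, 3 and 4, where the 14 genes under 500 bases have medians of -1.33, -0.96 and -0.88.

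The relation of the fold changes with length, GC content and pseudogenes was also read across the 80 genes, as a description. With transcript length rho was 0.45 for genotype after DSS, 0.30 for DSS in cKO, -0.22 for DSS in control and -0.10 for genotype on water. With gene_length it was 0.26, 0.30, -0.06 and -0.11 in the same order. With GC content it was 0.24, 0.06, -0.24 and -0.22 across the 80 genes, and 0.38, 0.05, -0.53 and -0.52 over all genes. For the interaction the values with GC content were 0.24 and 0.59. The part of GC content in the DSS differences was not tested. The fold changes had no such order with the share of reads on pseudogenes (rho between -0.02 and 0.08) or with the share of 100-base windows in other genes (between -0.10 and 0.08). The reads of the assigned pseudogenes were also added to each gene. Then 12, 28 and 31 genes were called lower for genotype after DSS, DSS in control and DSS in cKO, against 10, 26 and 29. Without the share of all genes called under that setting, these counts do not single out the 80 genes.

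**Figure D5:**
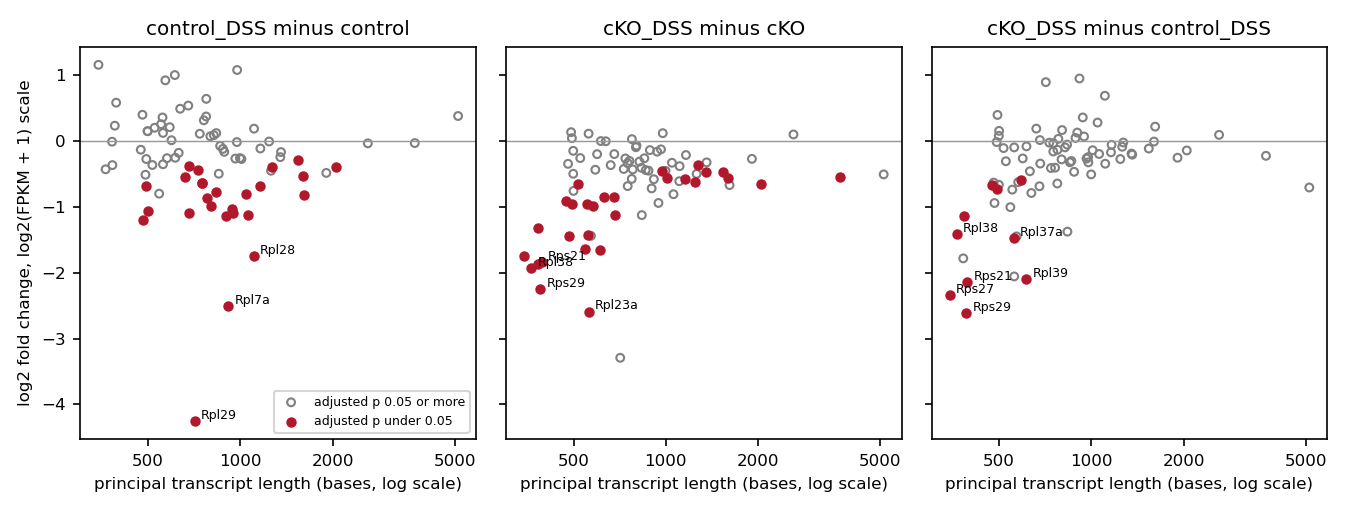
Log2 fold change on the log2(FPKM + 1) scale (y) against principal transcript length in bases on a log axis (x) for the 80 genes in 3 comparisons, filled where the limma adjusted p is under 0.05. Called genes of control_DSS against control include 9 of the 20 with 1000 bases or more, and the 10 called genes of cKO_DSS against control_DSS all lie under 650 bases.

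The test of whether the DSS effect differs between the genotypes called none of the 80, beside 0.151% of all genes (0.106% lower and 0.0453% higher). At an unadjusted p under 0.05 there were 31 of the 80 (38.75%), 27 of them with a more negative effect in cKO, beside 23.2% of all genes in either direction. The 3 smallest p were for Rpl24 (-1.40 ± 0.36, limma, adjusted p = 0.077), Rps27 (-2.91 ± 0.76) and Rpl39 (-2.66 ± 0.70, both adjusted p = 0.083). Without cKO_DSS 1, 20 were called and the values of Rps27 and Rpl39 were -3.72 and -3.37. Without cKO_DSS 2, 6 were called. Both counts lack the share of all genes called and do not single out the 80 genes.

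Other genes of ribosome production were measured from lists, to be read beside all genes tested, of which 13.5% fell and 15% rose with DSS in control and 6.64% fell and 8.07% rose in cKO. Of 31 ribosome biogenesis factors, 11 fell (35.5%) and 1 rose with DSS in control, and 9 fell (29.03%) and 0 rose with DSS in cKO. Nhp2, a core protein of the H/ACA particles that modify rRNA, went from 29.1 to 11.1 FPKM in control (-1.29 ± 0.19, limma, adjusted p = 0.00074) and from 22.7 to 13.98 FPKM in cKO (-0.70 ± 0.19, adjusted p = 0.025). Nop56, of the C/D particles, fell by 1.01 and 0.63 on the log2 scale (adjusted p = 0.00044 and 0.0090), and nucleolin (Ncl) by 0.36 and 0.50 (adjusted p = 0.0046 and 0.00071). The genotype comparisons called 0 of the 31 on water and 0 after DSS.

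Of 20 other translation genes with terminal oligopyrimidine mRNAs, 4 were lower with DSS in control (20%, beside 13.5% of all genes) and 5 with DSS among cKO (25%, beside 6.64%), and none rose. Npm1, the nucleolar chaperone, fell by 0.23 and 0.66 (adjusted p = 0.047 and 0.00021), Hnrnpa1 by 0.49 and 0.62 (adjusted p = 0.013 and 0.0050) and Eef1d, an elongation factor subunit, by 0.36 and 0.38 (adjusted p = 0.034 and 0.043), all from limma. After DSS, 0 of the 20 differed by genotype.

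Of 75 mitochondrial ribosomal proteins, which serve the separate ribosome of that organelle, 24 fell (32%) and 3 rose (4%) with DSS in control, and 5 fell and 0 rose in cKO. The 5 are 6.67% of the list, near the 6.64% of all genes that fell there. Mrpl11 (-0.71 ± 0.12), Mrps26 (-0.95 ± 0.21) and Mrpl48 (-0.46 ± 0.10) had the smallest p in control (limma, adjusted p = 0.0016, 0.0057 and 0.0056). Of 14 RNA polymerase I genes, 2 fell and 2 rose with DSS in control (14.3% each way, near the 13.5% and 15% of all genes) and 0 were called in cKO. Ubtf, which opens rRNA genes, fell from 22.1 to 14.6 FPKM (-0.57 ± 0.16, adjusted p = 0.020), Cd3eap, a polymerase I subunit, from 3.27 to 1.15 FPKM (-0.97 ± 0.21, adjusted p = 0.0054), and Twistnb, another subunit, rose from 2.80 to 3.68 FPKM (0.30 ± 0.10, adjusted p = 0.031). Of 14 genes of ribosome stress and translation control, 6 fell (42.9%) and 1 rose with DSS in control, and 1 fell (7.14%) and 0 rose in cKO. The falls in control were led by Cdkn1a, the p53 target p21, from 66.5 to 45.8 FPKM, Eif4ebp1, the translation repressor that mTORC1 phosphorylates, from 6.27 to 3.10 FPKM, and Zfp598, a sensor of collided ribosomes, from 29.9 to 23.4 FPKM (adjusted p = 0.0014, 0.0057 and 0.022). In cKO the 1 called was Cdkn1a (-0.33 ± 0.09, limma, adjusted p = 0.020), and the log2 fold changes of Eif4ebp1 and Zfp598 were 0.02 and 0.25 (adjusted p = 0.96 and 0.11).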

How the data were processed

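Total RNA of mouse colonic epithelial cells was sequenced in 16 libraries, 4 in each of 4 groups taken from the labels. The deposited values are FPKM per gene, which the authors computed on mm10 with featureCounts 1.5.0-p3 and DESeq2 1.20.0, per the submitters' processing notes. The aligner, the annotation release, strandedness and the treatment of reads matching several places are not stated in the sources at hand. FPKM times gene length gave whole reads within 0.05 for every value, so reads per gene and library were recovered. The ribosomal protein genes and the gene lists were chosen with earlier results of these data known.

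Values were taken as log2(FPKM + 1), so that fold changes of low genes are understated. The filter on low values asked for 1 FPKM or more in 4 or more of the libraries. A mean per group was fitted to all 16 libraries with limma 3.58.1 (R 4.3.3, trended eBayes, two-sided), and p-values were adjusted by Benjamini-Hochberg over all 13255 genes in each of 5 comparisons. The threshold was 0.05 with no fold limit. The fit was also run on simulated reads with the same relative spread for every gene. These held no outlying libraries and no reads moving between genes and copies, so such cases were not tested. Reads on pseudogenes were assigned with blastn 2.17.0 and GENCODE M21 transcripts, whose identifiers matched 98.0% of the genes.

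Named genes were, in each comparison, up to 8 called falls and rises of largest size, or the 3 smallest p where under 5 were called. A gene that the rule would name is not reported here. Added to these were the 5 highest and lowest genes by level, the paralogs, the 5 pseudogenes with most reads and 3 genes of each list. Rps13, Rps18, Rps12, Rpl37, Rplp2, Rps27rt, Ndufa1, Ifi27l2a, Cox5b-ps, mt-Nd3, mt-Nd4l, the genes shared by both DSS lists and those with over 30% of reads on copies were named after their values were seen. Alternatives were other pseudocounts, filters, scalings, covariates, corrections for length and GC content and left-out libraries. Those without cKO_DSS 2, 3 and 4, without mitochondrial reads and with pseudogene reads added were chosen after seeing the data.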

Additional observations from a re-analysis of the deposited data

Results flagged for a closer look

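In 21 named genes and 4 groups each, 12 of 84 groups of 4 libraries had 1 library far from the other 3. Independent groups chosen beforehand would give about 1 in 20 (4.2). These genes share their libraries and were mostly named for their fold changes, so that rate does not apply to them. In 8 of the 12 that library was cKO_DSS 1, which was above the other cKO_DSS libraries. Its values were 75.8 FPKM for Rpl23a (others 6.51 to 8.76), 63.1 for Rpl38 (18.7 to 23.2), 249 for Rpl39 (29.5 to 42.2), 126 for Rpl41 (85.5 to 89.8), 178 for Rps21 (23.5 to 31.7), 278 for Rps27 (25.1 to 34.3), 17.8 for Rps28 (2.53 to 2.84) and 107 for Rps29 (5.91 to 8.88).

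Control_DSS 4 was far above its group for Rpl29, at 53.9 FPKM against 0.256 to 0.556. Control_DSS 1 was low for Rps27, at 209 FPKM against 278 to 288. The library cKO 3 was low for Rpl23, at 82.5 FPKM against 103 to 106, and cKO_DSS 2 for Rps26, at 84.8 FPKM against 123 to 129.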

How the results depend on the processing

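Over 34 alternatives (33 for the interaction), the count for genotype on water was 0 except for 1 without cKO_DSS 2, 3 and 4. For genotype after DSS, 10 became 0 with no filter on low values, without cKO_DSS 3 and 4, without control 4 and control_DSS 2, and without cKO_DSS 2, 3 and 4. It was 1 with only the groups compared and 34 with sample quality weights (28 lower, 6 higher), and 0 to 22 leaving out 1 library. For DSS in control, 26 became 14 with no filter, 4 with the Y-linked covariate, 4 without control 4 and control_DSS 2, and 12 to 28 leaving out 1 library. For DSS in cKO, 29 became 17 with no filter, 0 with the Y-linked covariate, 2 without cKO_DSS 2, 3 and 4, and 16 to 34 leaving out 1 library. The interaction went from 0 to 35 with sample quality weights, and 0 to 20 leaving out 1 library. Causes were not tested, apart from fewer libraries and more genes tested where the alternative makes them.

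Rpl37a, Rpl39, Rps27 and Rps29 reversed without cKO_DSS 2, 3 and 4 for genotype after DSS, to 0.066, 0.0296, 0.0826 and 0.2161. For DSS in cKO under the same alternative Rpl39, Rps21, Rps27 and Rps29 reversed to 0.4727, 0.2032, 0.6757 and 0.5814. Of 23 named calls, 16 were lost with the Y-linked covariate and 17 with no filter. The median of the 80 genes stayed below 0 in every alternative for DSS in control (-0.32 to -0.08), DSS in cKO (-0.58 to -0.37) and genotype after DSS (-0.30 to -0.15).

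The labels number replicates 1 to 4 in each group without saying that a number marks a shared origin. Same-numbered libraries correlated at -0.20 to 0.30, over 0.1 in 6 of 24 pairs, and 9 of 16 libraries correlated best with their own number. With a replicate block the genotype comparisons gave 0 on water and 8 after DSS. The DSS comparisons gave 28 (control) and 35 (cKO), and the interaction 0, again without the share of all genes called. Depth limits genes such as Rps10 and Rpl24, which rest on 29 to 125 reads a library.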
